A study of Mus musculus with 6 samples.

Results

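The SLAM family (signaling lymphocytic activation molecule family) is a group of immune cell surface receptors encoded side by side on mouse chromosome 1. The genes described here were Ly9, Slamf9, Slamf8, Cd84 and Cd48, which are 5 of the 17385 genes in the count table. These 5 genes were chosen by name, with their 5xFAD and WT counts already known, so their levels, fold changes and calls are given as a description that supports nothing, and no p-value is given for them. Hippocampal RNA of 3-month-old mice was sequenced in 3 5xFAD libraries and 3 wild-type (WT) libraries. The 5xFAD mice carry mutant human transgenes of familial Alzheimer's disease, among them APP with the Swedish, Florida and London mutations, driven by the mouse Thy1 promoter, which is active mainly in neurons. WT mice carry no transgene. Both groups were perfused with phosphate-buffered saline, and both share the same tissue and age. The question of the study at this level was which hippocampal transcripts differ between the genotypes at an early age.

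Most SLAM receptors bind themselves on a neighbouring cell, whereas Cd48 is the ligand of the receptor Cd244a. Cd48 also has no cytoplasmic tail. The tail of the signaling members carries immunoreceptor tyrosine-based switch motifs, in which a phosphorylated tyrosine recruits the small adaptors SAP (Sh2d1a) and EAT-2 (Sh2d1b1), or phosphatases. The family is best known in lymphocytes, natural killer cells and myeloid cells. In the brain, the blood-derived and resident cells that can carry such receptors are mainly macrophages and microglia.

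The listed genes differ in whether switch motifs lie near the end of the coding sequence, where the tail is encoded, which is why the motif codons are shown. A script searched the coding sequence of the GENCODE M21 annotation (GRCm38) for codons that read threonine, any residue, tyrosine, any residue, any residue, and valine or isoleucine. The coding sequence of Ly9 (654 codons) and that of Cd84 (329 codons) each held 2 matches close to the end, and so did that of Slamf6 (351 codons), a family gene outside the 5. The tyrosine codon is in capitals, each line is read 5′ to 3′ on the coding strand, and the position is that of the printed bases.

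Ly9, tyrosine at codon 587, chr1:171593912-171593929, minus strand: actccaTATgataaagtg

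Ly9, tyrosine at codon 625, chr1:171593438-171593455, minus strand: acaatcTACtgctctgtg

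Cd84, tyrosine at codon 265, chr1:171884605-171884622, plus strand: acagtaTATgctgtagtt

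Cd84, tyrosine at codon 300, chr1:171885601-171885618, plus strand: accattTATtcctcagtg

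Slamf6, tyrosine at codon 295, chr1:171939437-171939454, plus strand: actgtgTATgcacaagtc

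Slamf6, tyrosine at codon 319, chr1:171941664-171941681, plus strand: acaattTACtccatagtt

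The last of these tyrosine codons lies 30 codons before the stop codon in both Ly9 and Cd84. Slamf9 (285 codons) had 0 matches. Slamf8 had 1 match, at codon 116 of 278, and Cd48 had 1 match, at codon 107 of 240, both far from the end of the coding sequence. A match to these letters is a description of the sequence and not evidence that the tyrosine is used.

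On GRCm38, the annotated Ly9 gene spans chr1:171588624-171607410 on the minus strand, Cd48 spans chr1:171682009-171705258 on the plus strand, and Cd84 spans chr1:171839697-171890718 on the plus strand. Slamf9 spans chr1:172475358-172478575 on the plus strand and Slamf8 spans chr1:172581758-172590568 on the minus strand. Ly9 lies within the span of Cd244a on the opposite strand, with 0 exonic bases shared between them. Whether the counting used strand is not stated in the sources at hand.

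The libraries held 18997677 to 23873280 counts in 5xFAD and 21440700 to 22132716 counts in WT, so that 1 read was worth 0.0406 to 0.0560 CPM (counts relative to the scaled size of the library). Thy1, whose promoter drives the transgenes, stood at 2776, 3316 and 2379 CPM in 5xFAD replicates 1 to 3, against 851, 887 and 812 CPM in WT replicates 1 to 3. The sum of 5 hippocampal neuron markers was 2700 to 2760 CPM in 5xFAD and 2740 to 2760 CPM in WT, so neuron transcripts of the hippocampus were abundant in every library. In 5xFAD replicates 1 and 2, gene deviations from the mean of the WT libraries tracked transcript GC content (Spearman across genes of -0.54 and -0.67). Those of 5xFAD replicate 3 did not (-0.07). Each WT library was set against the other WT libraries only, and its deviations did not track GC content either (-0.06 to 0.06). Erythroid transcripts were also far apart, with a sum of 1.06 to 2.35 CPM in 5xFAD and 54.9 to 84.9 CPM in WT, and the part of GC content or of residual blood in the values that follow was not tested.

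Ly9 (ENSMUSG00000004707; CD229) is a receptor that binds itself on other cells and was the listed gene with the largest fold change, while Cd84 differed most in CPM. It had 65, 43 and 104 counts in 5xFAD replicates 1 to 3, against 3, 9 and 8 counts in WT replicates 1 to 3. These counts correspond to 3.07, 2.41 and 4.23 CPM in 5xFAD and to 0.133, 0.417 and 0.366 CPM in WT. The groups did not overlap, and the lowest 5xFAD library was 5.77 times the highest WT library. Ly9 averaged 3.23 ± 0.921 CPM in 5xFAD and 0.305 ± 0.151 CPM in WT (SD, n = 3 each), a fitted log2 fold change of 3.39 (SE 0.42), or 10.5-fold.

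Slamf9 (ENSMUSG00000026548) is a receptor of myeloid cells with a short tail. It had 34, 30 and 53 counts in 5xFAD, against 9, 5 and 7 counts in WT. In CPM these were 1.61, 1.68 and 2.15 in 5xFAD and 0.400, 0.232 and 0.320 in WT. Every 5xFAD library was again above every WT library. The means were 1.81 ± 0.298 CPM in 5xFAD and 0.317 ± 0.0843 CPM in WT, and the fitted log2 fold change was 2.49 (SE 0.33), or 5.64-fold.

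Cd84 (ENSMUSG00000038147) is a self-binding receptor of lymphoid and myeloid cells, and it supplied most of the SLAM counts in the hippocampus. It had 200, 211 and 228 counts in 5xFAD, against 67, 63 and 81 counts in WT, or 9.44, 11.8 and 9.26 CPM in 5xFAD and 2.98, 2.92 and 3.70 CPM in WT. With these counts Cd84 is the listed gene with the smallest counting error, and its groups were well apart. It averaged 10.2 ± 1.42 CPM in 5xFAD and 3.20 ± 0.435 CPM in WT, with a fitted log2 fold change of 1.66 (SE 0.18), or 3.17-fold.

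Cd48 (ENSMUSG00000015355), the membrane-anchored ligand of Cd244a, had, of the 4 listed genes in the fit, the largest SE relative to its log2 fold change. It had 27, 44 and 59 counts in 5xFAD, against 18, 9 and 10 counts in WT, or 1.27, 2.46 and 2.40 CPM in 5xFAD and 0.801, 0.417 and 0.457 CPM in WT. The groups did not overlap, but 5xFAD replicate 1 was only 1.59 times WT replicate 1. The means were 2.05 ± 0.668 CPM in 5xFAD and 0.558 ± 0.211 CPM in WT, with a fitted log2 fold change of 1.86 (SE 0.40).

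Slamf8 (ENSMUSG00000053318), a receptor of myeloid cells that in mouse macrophages restrains the phagocyte oxidase, was close to the limit of detection. It had 4, 4 and 3 counts in 5xFAD and 4, 1 and 2 counts in WT. The groups overlapped, and the pooled ratio of 5xFAD to WT was 1.63 with a 95% counting interval of 0.576 to 4.95 (exact binomial). At this depth neither a moderate difference nor its absence could be shown for Slamf8.

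**Figure D1:**
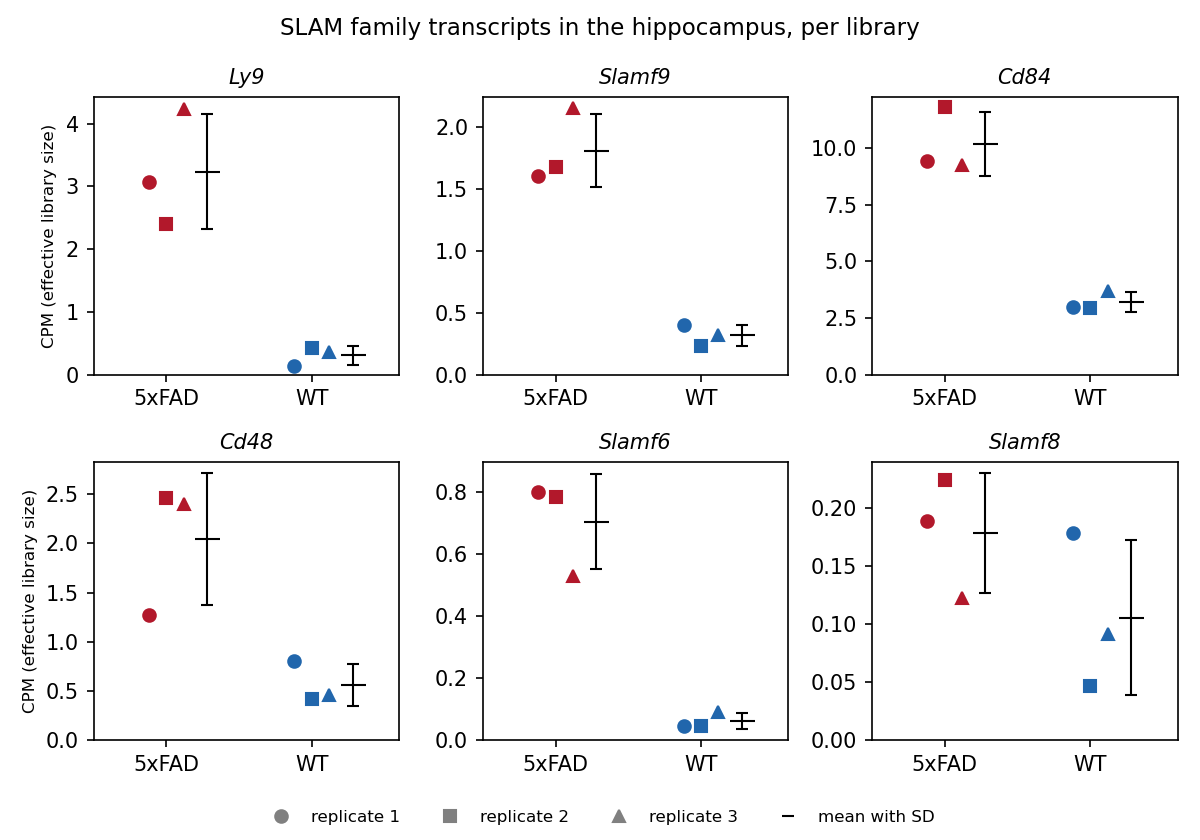
Level of 6 SLAM family genes in each library, in CPM on linear axes that start at 0, with 5xFAD libraries in red and WT libraries in blue. Symbols mark the replicate, and the bar beside each group is the mean with SD. The 3 red points lie above the 3 blue points for Ly9, Slamf9, Cd84, Cd48 and Slamf6, whereas the groups overlap for Slamf8.

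Of the 5 listed genes, 4 passed the filter on low counts and so were part of the fit over all genes. Cd84 passed in all 3 libraries of each group, Cd48 in 3 5xFAD libraries and 1 WT library, and Ly9 and Slamf9 only through the 5xFAD libraries, so those 2 genes had to differ to be fitted. With the edgeR quasi-likelihood test at an adjusted p threshold of 0.05, 3 of the 4 were called, all higher in 5xFAD (Ly9, Slamf9 and Cd84). Of all 13937 genes tested, 0.761% were called in either direction and 0.667% were called higher in 5xFAD. For 13.2% of all genes tested, every 5xFAD library was above every WT library, as it was for the 4 listed genes in the fit. Since the genes were chosen with these counts known, nothing is read from these shares. The fitted log2 fold changes of the 4 genes had a median of 2.18, and the median over all genes tested was -0.01. In such bulk tissue, more cells of a type and more RNA per cell (or fewer cells and less RNA per cell) cannot be told apart.

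The calls were more fragile than the fold changes. The count of 3 called genes became 0 without WT replicate 1, WT replicate 2, WT replicate 3 or 5xFAD replicate 1, and 4 without 5xFAD replicate 3. The fitted log2 fold change stayed between 3.03 and 3.79 for Ly9, between 2.32 and 2.75 for Slamf9, between 1.37 and 1.78 for Cd84 and between 1.56 and 2.21 for Cd48 over 17 other ways of processing. For Cd84 the lowest value, 1.37, came from the fit with a term for GC content and length.

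**Figure D2:**
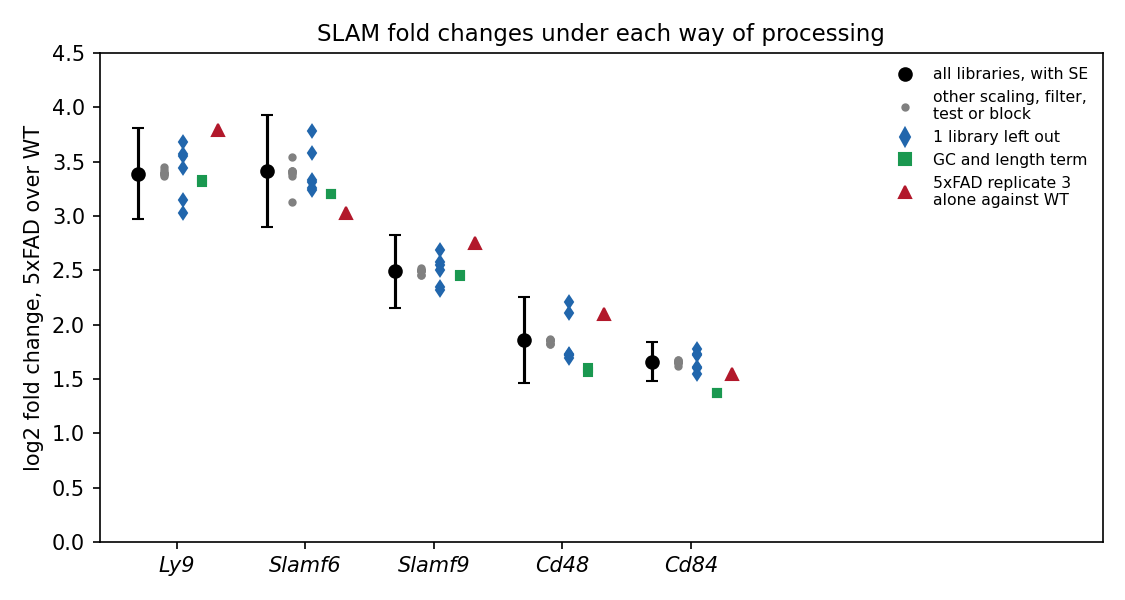
Fitted log2 fold change (5xFAD over WT) of 5 SLAM family genes with all libraries (black, with SE) and under other ways of processing. Grey dots are other scalings, filters, tests and the replicate block, blue diamonds leave out 1 library, green squares add a GC and length term, and red triangles set 5xFAD replicate 3 alone against WT. All points lie above 0, and the lowest is that of Cd84 with the GC and length term (1.37).

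To compare levels between the genes, CPM was divided by the length of the merged exons in kilobases. On this scale the 5xFAD levels were 1.72 ± 0.562 for Cd48, 1.62 ± 0.227 for Cd84, 1.38 ± 0.227 for Slamf9, 0.978 ± 0.278 for Ly9 and 0.0579 ± 0.0168 CPM per kb for Slamf8. The first 3 genes in this order do not differ beyond the spread between libraries, and Ly9 overlapped with Cd48 and Slamf9 but not with Cd84. In WT the levels were 0.510 ± 0.0693 for Cd84, 0.469 ± 0.177 for Cd48, 0.242 ± 0.0642 for Slamf9, 0.0923 ± 0.0457 for Ly9 and 0.0342 ± 0.0217 CPM per kb for Slamf8. Cd84 and Cd48 overlapped in WT, and Ly9 was below Slamf9 in every WT library. The length used matters for Cd84, which stood at 2.96 ± 0.414 CPM per kb in 5xFAD, above all other family genes, when the longest transcript was used in place of the merged exons.

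The make-up of the family's counts differed between the genotypes as well. The 8 SLAM genes in the table summed to 350, 349 and 461 counts in 5xFAD, against 105, 90 and 112 counts in WT, or 18.3 ± 1.56 CPM in 5xFAD and 4.65 ± 0.474 CPM in WT. Cd84 made up 49.5 to 60.5% of these counts in 5xFAD and 63.8 to 72.3% in WT. Ly9 made up 12.3 to 22.6% in 5xFAD and 2.86 to 10% in WT. The ranges of these shares did not overlap for either gene, whereas those of Cd48 did, with 7.71 to 12.8% in 5xFAD and 8.93 to 17.1% in WT. Slamf9 took 8.60 to 11.5% in 5xFAD and 5.56 to 8.57% in WT.

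**Figure D3:**
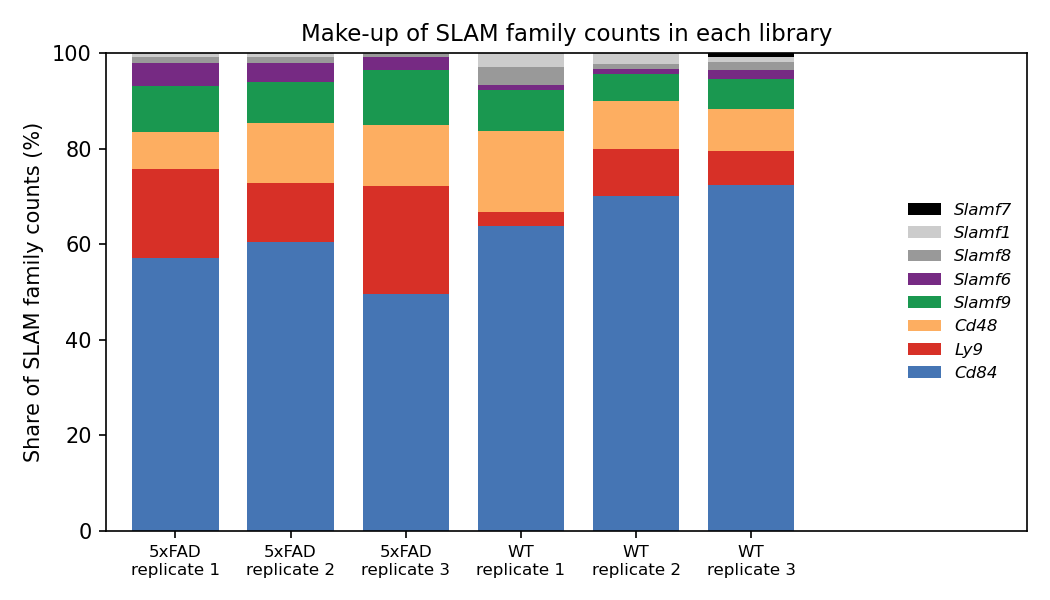
Share of each gene in the SLAM family counts of each library, in percent, with the 5xFAD libraries on the left and the WT libraries on the right. Cd84 is the largest share in every library, and the share of Ly9 is 12.3 to 22.6% in 5xFAD and 2.86 to 10% in WT.

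Of the family genes outside the 5, 3 were in the table, and Cd244a was not analysed here. Slamf6 (ENSMUSG00000015314; Ly108), a self-binding receptor known from T, B and natural killer cells, had 17, 14 and 13 counts in 5xFAD, against 1, 1 and 2 counts in WT. The fitted log2 fold change was 3.41 (SE 0.52), with an adjusted p of 0.0356 in the edgeR quasi-likelihood test over all genes. The pooled ratio was 11.4 with a 95% counting interval of 4.15 to 43.7. Slamf6 passed the filter only through the 5xFAD libraries and so had to differ to be tested, which leaves the call as a description. The call was also lost without any 1 WT library (adjusted p of 0.116 to 0.248) or without 5xFAD replicate 1 (0.237). Over the alternatives its adjusted p was 2.1e-05 to 0.268.

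Slamf1 and Slamf7 were too low to test. Slamf1, the founding member of the family, had 3, 3 and 1 counts in 5xFAD and 3, 2 and 1 counts in WT. Slamf7, a receptor of plasma and natural killer cells, had 0 counts in each 5xFAD library and 0, 0 and 1 counts in WT. A count of 0 in a library allows a level of up to 3 counts, which is 0.122 to 0.168 CPM in the 5xFAD libraries, and this covers counting error only. Slamf7 shares 423 exonic bases with an antisense gene, so its value would be uncertain in any case.

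The members were next set beside the markers of the cells that can carry them. The sum of 10 microglia markers was 580, 528 and 620 CPM in 5xFAD replicates 1 to 3, against 328, 326 and 327 CPM in WT. Of the 10 genes, 9 were tested and 6 were called higher in 5xFAD, among them P2ry12, Cx3cr1, Fcrls, Gpr34 and Siglech, while Tmem119 had a log2 fold change of -0.06. Of all genes tested, 0.667% were called higher in 5xFAD. Other cell types moved as well. The sum of 3 astrocyte markers was 1240 to 1450 CPM in 5xFAD and 1120 to 1150 CPM in WT (1 of 3 called, higher in 5xFAD), and that of 3 oligodendrocyte markers was 3290 to 3380 CPM in 5xFAD and 3750 to 4520 CPM in WT. A list of 6 dendritic cell markers, which shares Siglech with the microglia list, summed to 38.6 to 52.7 CPM in 5xFAD and 33.2 to 39.7 CPM in WT. These ranges overlapped, and Siglech itself averaged 24.4 CPM in 5xFAD and 14.1 CPM in WT. Flt3 and Zbtb46, the other tested genes of that list, had log2 fold changes of 0.08 and -0.14, and neither was called. Microglia and astrocyte marker sums were thus higher in each 5xFAD library. So were Ly9, Slamf9, Cd84, Cd48 and Slamf6, but not Slamf8, Slamf1 and Slamf7. The part of any of these cell types in the SLAM values was not tested. The ratio of SLAM to microglia marker transcripts is given per library.

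Per 1000 CPM of microglia marker transcripts, Ly9 stood at 5.29, 4.56 and 6.82 in 5xFAD and at 0.407, 1.28 and 1.12 in WT, a 5.94-fold ratio of means. Slamf9 stood at 2.77, 3.18 and 3.48 in 5xFAD and at 1.22, 0.711 and 0.979 in WT, a 3.24-fold ratio. Cd84 stood at 16.3, 22.4 and 14.9 in 5xFAD and at 9.10, 8.96 and 11.3 in WT, a 1.82-fold ratio. For these 3 genes every 5xFAD library remained above every WT library on this scale. Cd48 did not, with 2.20, 4.66 and 3.87 in 5xFAD and 2.44, 1.28 and 1.40 in WT. The means of Slamf8 differed by less than its scatter, with 0.315 ± 0.114 in 5xFAD and 0.322 ± 0.204 in WT.

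**Figure D4:**
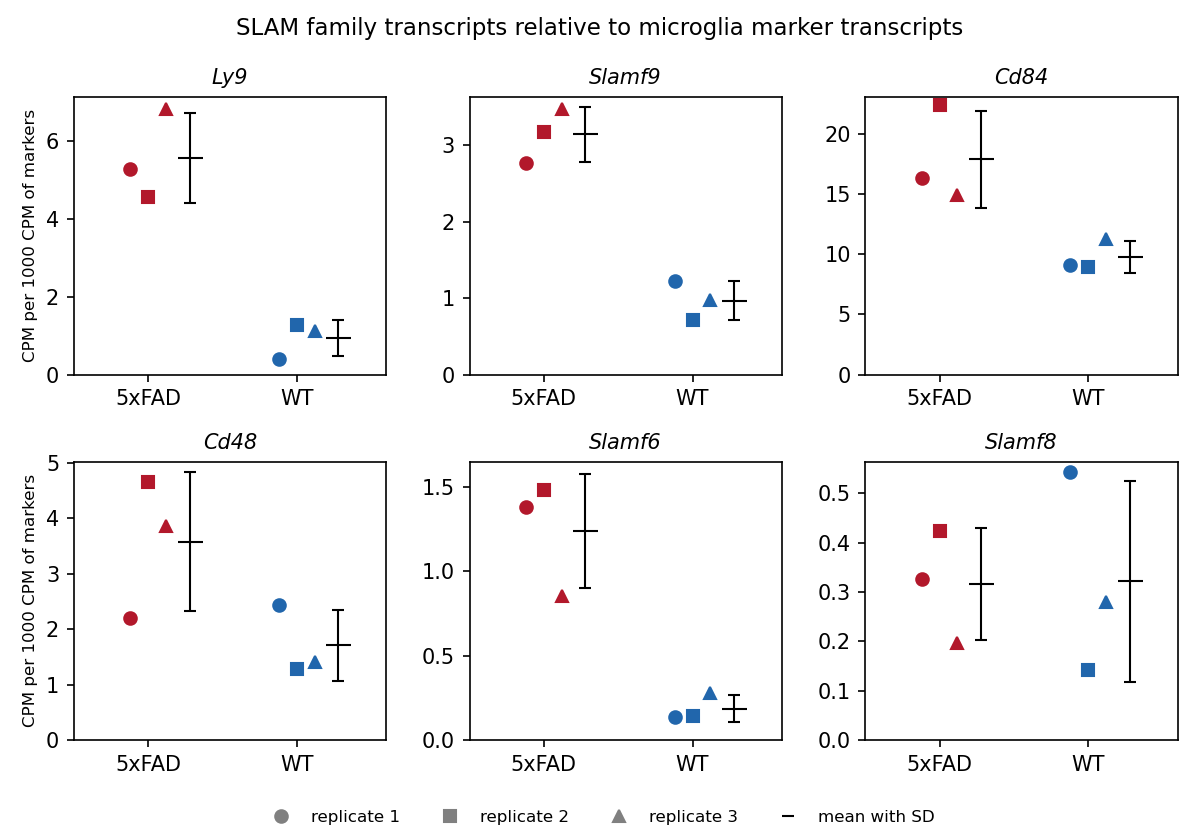
Level of 6 SLAM family genes relative to the summed level of 10 microglia markers, in CPM per 1000 CPM of marker transcripts, with linear axes that start at 0. Red symbols are 5xFAD libraries, blue symbols are WT libraries, and the bar beside each group is the mean with SD. The groups stay apart for Ly9, Slamf9, Cd84 and Slamf6 and overlap for Cd48 and Slamf8.

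Lymphocyte markers were low in every library, and most were too low to test. The sum of 8 T cell markers was 1.02 to 1.32 CPM in 5xFAD and 0.503 to 1.53 CPM in WT, and 4 of the 8 had at most 3 counts in any library. Cd3d and Cd3e, subunits of the T cell receptor complex, each had 0 counts in the 5xFAD libraries and 1 count in all of WT. Other genes of the list went both ways. Cd5 had 7, 2 and 4 counts in 5xFAD and 0, 2 and 0 counts in WT, too few to test. Cd4, also untested, had 23 counts over the 5xFAD libraries and 12 over the WT libraries. Cd6, the only T cell marker tested, had 13, 8 and 7 counts in 5xFAD and 14, 20 and 5 counts in WT. Its log2 fold change was -0.41 (edgeR adjusted p 0.655). Cd247 had 6 counts over the 5xFAD libraries and 8 over the WT libraries. B cell markers summed to 0.447 to 0.560 CPM in 5xFAD and 0.463 to 0.822 CPM in WT, with Ms4a1 at 0 in each 5xFAD library. Natural killer cell markers summed to 0 to 0.122 CPM in 5xFAD and 0.0889 to 0.0927 CPM in WT. Monocyte and neutrophil markers summed to 0.330 to 0.504 CPM in 5xFAD and 0.457 to 0.534 CPM in WT. Markers of border macrophages, which line vessels and meninges, summed to 5.09 to 7.72 CPM in 5xFAD and 6.18 to 8.09 CPM in WT. For each of these lists the ranges of the groups overlapped.

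The partners through which SLAM receptors signal were then examined in a list of 34 genes, of which 31 were in the table and 26 were tested. Of the 26, 2 were called by the edgeR quasi-likelihood test, both higher in 5xFAD. An unadjusted p under 0.05 in this test was reached by 10 of the 26, against 2634 of all 13937 genes tested. The median log2 fold change of the list was 0.29, against -0.01 over all genes tested, of which 0.761% were called. Both called genes are phosphatases. Ptprc (CD45), which activates Src family kinases and can also act on SLAM tails, averaged 14.4 ± 1.98 CPM in 5xFAD and 4.12 ± 0.504 CPM in WT, or 1.80 on the log2 scale (SE 0.17, edgeR adjusted p 0.00528). Ptpn6 (SHP-1), which binds phosphorylated switch motifs, averaged 10.02 ± 0.765 CPM in 5xFAD and 4.47 ± 0.181 CPM in WT, or 1.16 on the log2 scale (SE 0.14, edgeR adjusted p 0.0157). Without a WT library in turn, the adjusted p of Ptpn6 was 0.0918 to 0.131, and that of Ptprc was 0.0536 and 0.0535 without WT replicate 1 and WT replicate 2.

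The adaptors of the pathway were almost without reads. Sh2d1b1 (EAT-2) had 1 count over all 6 libraries, Sh2d1b2 (ERT) had 1, 0 and 1 counts in 5xFAD and 0 counts in each WT library, and Sh2d1a (SAP) was not analysed here. Cd2, which in mouse also binds Cd48, had 1 count in total. A count near 0 in this table need not mean that the transcript was absent, since 1 of the 10 microglia markers described above also had only 1 to 11 counts per library.

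Among the kinases, 7 of 8 were tested and their median log2 fold change was 0.42. Syk, the kinase of immune receptor signaling, averaged 10.4 ± 0.686 CPM in 5xFAD and 6.31 ± 0.122 CPM in WT (log2 fold change 0.72, edgeR adjusted p 0.0602). Lyn, a Src family kinase of myeloid cells, averaged 15.3 ± 0.456 CPM in 5xFAD and 9.87 ± 1.58 CPM in WT (0.63, edgeR adjusted p 0.128). Neither passed the threshold, although their groups did not overlap. Fyn, the Src family kinase that SAP recruits, was at 159 ± 5.44 CPM in 5xFAD and 164 ± 3.82 CPM in WT, and it is a kinase that neurons also express.

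Of the genes further downstream, 10 of 11 were tested with a median of 0.38. Vav1, an exchange factor of blood cells, averaged 7.25 ± 0.434 CPM in 5xFAD and 3.50 ± 0.720 CPM in WT (log2 fold change 1.05, edgeR adjusted p 0.0708). Among the 5 phosphatases, which had a median of 0.63, Inpp5d (SHIP-1), an inositol phosphatase that switch motifs can recruit, averaged 26.0 ± 5.32 CPM in 5xFAD and 16.8 ± 0.463 CPM in WT (0.63, edgeR adjusted p 0.149). The phagosome genes, which include Becn1 and Pik3c3 of the lipid kinase complex that Slamf1 binds in mouse macrophages, had a median of 0.05 over 4 tested genes.

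The phagocyte oxidase, the enzyme complex that Slamf1 and Slamf8 regulate in mouse macrophages, was measured through 6 genes that were all tested. For each of the 6, every 5xFAD library was above every WT library, a pattern that 13.2% of all genes tested showed, and 2 of the 6 were called, both higher in 5xFAD, against 0.667% of all genes tested. Cybb, the catalytic membrane subunit, averaged 2.83 ± 0.483 CPM in 5xFAD and 0.543 ± 0.185 CPM in WT (log2 fold change 2.36, edgeR adjusted p 0.0233). It passed the filter on low counts in 3 5xFAD libraries but only 1 WT library, which leaves its call as a description. Ncf1, a cytosolic organizer subunit, averaged 7.10 ± 0.627 CPM in 5xFAD and 3.15 ± 0.520 CPM in WT (1.17, edgeR adjusted p 0.0413). Without a WT library in turn, or without 5xFAD replicate 1, neither gene was called (adjusted p of 0.0868 to 0.280). The other 4 genes did not pass the threshold. Rac2, the small GTPase of the complex, averaged 8.19 ± 0.974 CPM in 5xFAD and 4.72 ± 0.157 CPM in WT (log2 fold change 0.79, edgeR adjusted p 0.0827), and Cyba, the partner of Cybb in the membrane, averaged 7.79 ± 0.945 CPM in 5xFAD and 4.06 ± 1.18 CPM in WT (0.94, edgeR adjusted p 0.148). The cytosolic subunit Ncf4 had a log2 fold change of 0.53. The median of the list was 0.87.

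The other genes of the chromosome interval were listed as the surroundings of the SLAM genes. The interval ran 100 kb past the outermost family genes, chr1:171459193-172690568 on GRCm38, and held 22 other protein-coding genes of the table, of which 17 were tested. Of these, 0 were called by the edgeR quasi-likelihood test, and DESeq2, the edgeR exact test and limma-voom called 0 as well. An unadjusted p under 0.05 in the quasi-likelihood test was reached by 1 of the 17, against 2634 of all 13937 genes tested. This gene was Pigm (log2 fold change 0.32, adjusted p 0.239). Without 5xFAD replicate 3, 2 of the neighbouring genes were called (Pigm and Igsf8). With all libraries, the log2 fold changes of the 17 ran between -0.996 and 0.32 with a median of -0.07. Casq1, a calcium-binding protein of muscle, was the lowest (-0.996, edgeR adjusted p 0.288), Igsf8, an immunoglobulin superfamily protein, was at -0.46 (0.311) and Kcnj10, a potassium channel of astrocytes, was at 0.15 (0.338). The fitted SLAM genes, whose values were known when they were chosen, are shown beside these genes for their position only, and the part of chromosome position in their values was not tested. Ncstn, which encodes nicastrin, a subunit of the γ-secretase that cleaves APP, averaged 73.2 ± 4.95 CPM in 5xFAD and 73.5 ± 2.03 CPM in WT.

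**Figure D5:**
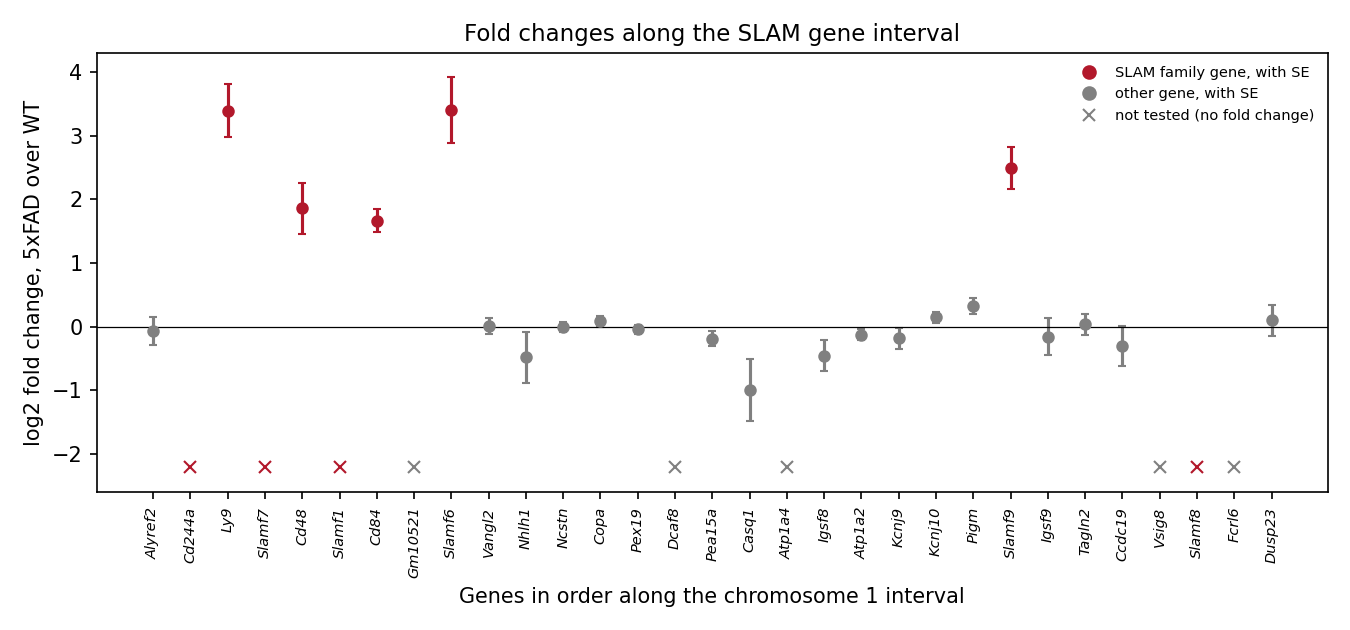
Fitted log2 fold change (5xFAD over WT) with SE of the genes in the chromosome 1 interval, in gene order, with SLAM family genes in red and other genes in grey. Crosses at the foot mark genes with no fitted fold change, and their height has no meaning. The 5 red points lie between 1.66 and 3.41, and the grey points lie between -0.996 and 0.32.

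The promoters of the listed genes were searched for short motifs of factors known from myeloid and interferon-responsive genes, using the RefSeq promoter table (GRCm38.p6, 250 bases before to 50 bases after the start). The table held 8 SLAM promoters, and that of Ly9 was not analysed here. The letters searched on both strands were GAGGAA (PU.1 core), TGTGGT (RUNX), GAAANNGAA (interferon type) and TGACTCA (AP-1). All 6 matches before the start of the listed genes are shown with 10 bases on each side and the match in capitals. A match on the other strand reads as the reverse complement of the letters searched.

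Slamf9, PU.1 core 8 bases before the start, chr1:172475342-172475367, plus strand: aatgtgtacaGAGGAAgttggaggga

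Cd84, RUNX 45 bases before the start, chr1:171839642-171839667, plus strand: ctggatggttTGTGGTgtctcccgtg

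Cd84, interferon type 29 bases before the start, chr1:171839658-171839686, plus strand: gtctcccgtgTTCCTTTTCtggttccaca

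Cd84, AP-1 229 bases before the start, chr1:171839458-171839484, plus strand: cagtttctctTGAGTCAattttcttgt

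Cd48, RUNX 76 bases before the start, chr1:171681906-171681931, plus strand: tctcattccaTGTGGTgtgatggtag

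Slamf8, interferon type 14 bases before the start, chr1:172590564-172590592, minus strand: ccgggatgctTTCGCTTTCaagacatctt

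Matches of GAGGAA occurred in 4 of the 8 SLAM promoters and in 28.3% of 32851 promoters of the table. TGTGGT occurred in 2 of the 8 and in 16.8% of all, GAAANNGAA in 2 of the 8 and in 8.56% of all, and TGACTCA in 4 of the 8 and in 5.20% of all. Slamf6 and Slamf1 each had no match of these letters in the window. No factor binding was measured.

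Finally, the genes with the most similar pattern over the 6 libraries were found by the root mean square distance of log2(CPM + 0.5), centred on the WT mean, among 13046 genes with a mean of at least 1 CPM. For Ly9 they were Fam46c (0.204), Mpeg1 (0.229) and Cd52 (0.313), and for Slamf9 they were Lgals3bp (0.143), Ctss (0.146) and Gfap (0.154). For Cd84 they were Fyb (0.123), Ptprc (0.157) and Lyz2 (0.163). For Cd48 they were Oas1a (0.226), Baz1a (0.229) and Trim30a (0.266). Of the 4 listed genes in the fit, Slamf9 and Cd84 were the closest pair (0.217) and Ly9 and Cd48 the most distant (0.811). The added 0.5 CPM compresses low genes on this scale, and genes chosen for a high 5xFAD level will resemble others with one.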

How the data were processed

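Hippocampal RNA from 3 5xFAD and 3 WT samples was depleted of ribosomal RNA and sequenced as paired-end reads. Per the submitters' processing notes, cutadapt 1.9.3, HISAT2 2.0.4, HTSeq 0.9.1 and edgeR 3.16.5 were used with mm10. The authors deposited raw counts per gene, which were analysed as such. The 6 columns of the authors' normalized values were not used. The strand setting and annotation release behind these counts are not given in the sources used. Samples were grouped by their titles. Sex, which the methods describe inconsistently, was not analysed. The samples are described as independent without naming the mouse behind each, so p-values measure only the spread between these libraries.

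The edgeR package (4.0.16, in R 4.3.3) was used for the fit. Its filterByExpr function at a minimum count of 10 (0.465 CPM) left 13937 genes, and TMM factors scaled the libraries. Genotype was tested two-sided by quasi-likelihood over all 6 libraries, with Benjamini-Hochberg adjustment over all genes tested and a threshold of 0.05. The SE is the log2 fold change over the square root of F. The steps were tested on simulated data. Alternatives were other scalings, no filter, limma-voom (limma 3.58.1), DESeq2 1.42.0, edgeR's exact test, a replicate block, each library left out, 5xFAD replicate 3 alone against WT, and a spline term for GC content and length, alone and with the block. The length of the longest transcript and a sum of 4 microglia markers were chosen after seeing the data. With 3 against 3 samples an exact test of a single value cannot go below 0.1.

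The SLAM genes, the gene lists and the rule for named genes were chosen with earlier results of these data known. The rule named the SLAM genes, of each list the genes called and up to 4 more with the smallest adjusted p, the 3 nearest genes in pattern, and marker genes. Fyn, Ncstn, Becn1, Pik3c3, Cd2 and the adaptors were named for their roles, after their values were seen. A few genes covered by this rule are not reported here. Coordinates and lengths are from GENCODE M21 (GRCm38), which may differ from the annotation used for counting. Counting intervals are 95% and, since no molecular identifiers mark single molecules, they cover counting error only. No pair of libraries in a group was near identical (chi-square per gene of at least 4.01).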

Additional observations from a re-analysis of the deposited data

How the results depend on the processing

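The number of listed genes called was 3 with all libraries and 0 to 4 when 1 library was left out. The number of all genes called was 106 with all libraries and 12 to 3229 when 1 library was left out. It was 69 with library totals, 507 with DESeq2, 572 with the edgeR exact test and 171 with the GC and length term. Of the other SLAM genes, 1 was called (Slamf6), against 0 to 1 with 1 library left out and 0 with 5xFAD replicate 3 alone against WT. Of the partner genes, 2 were called, against 0 to 9 with 1 library left out, 7 with DESeq2 and 7 with the edgeR exact test, and 5 with the GC and length term. Of the oxidase genes, 2 were called, against 0 to 4 with 1 library left out, 1 with library totals, 4 with DESeq2 and 4 with the edgeR exact test, and 0 with 5xFAD replicate 3 alone against WT. Of the neighbouring genes, 0 were called, against 0 to 2 with 1 library left out. Igsf8, at -0.46, was at 0.0153 with 5xFAD replicate 3 alone against WT. The cause of these changes was not tested.

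Same-numbered libraries of the groups did not deviate together over all genes (correlations of -0.0236 to -0.0174). Pairs with different numbers were also near 0 (-0.0212 to 0.0328). This check does not settle whether same-numbered samples were paired in some other way. With the replicate block, 20 genes were called in all, and 0 of the listed genes, 0 of the other SLAM genes (also 0 with the GC and length term added), 0 of the partner genes and 0 of the oxidase genes. Counts under 20 in every library of both groups limit Slamf8, Slamf1, Slamf7 and Slamf6. In WT, every library of Ly9, Slamf9 and Cd48 also held under 20 counts, which limits their fold changes. The counting interval of the pooled ratio of 5xFAD to WT was 6.93 to 18.3 for Ly9. It was 3.61 to 9.67 for Slamf9 and 2.51 to 5.4 for Cd48.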
